A study of Mus musculus with 8 samples.

Results

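The HoxC cluster genes Hoxc4, Hoxc5, Hoxc6, Hoxc8, Hoxc9 and Hoxc10 were followed through single-cell RNA sequencing (scRNA-seq) libraries of mouse forelimb mesenchymal progenitors (MPs). They were chosen by symbol, and are 6 of the 28001 genes in the count tables. Values were taken from 51283 mesenchymal cells among the 53085 cells that held at least 3000 unique molecular identifiers (UMIs, 1 per captured transcript) and at most 10% mitochondrial UMIs, out of 57469 cell barcodes. Of the study's libraries 8 were used here, all of C57BL/6J embryos. 6 of them held tdTomato+ MPs sorted from forelimbs at embryonic day (E) 11.5, 12.5, 13.5 and 14.5 and from the proximal and the distal forelimb segment at E16.5, with 1 library each, and 2 held E11.5 whole forelimb cells with no selection for tdTomato. The E16.5 proximal segment comprised the distal stylopod (upper arm), the elbow and the proximal zeugopod (forearm), and the E16.5 distal segment the distal zeugopod and the autopod (wrist and hand).

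The sorted embryos were homozygous for a CreERT2 allele of Hic1 and for a Cre-dependent tdTomato reporter at Rosa26, so that cells in which Hic1 drove Cre, and their descendants, carried tdTomato after activation by tamoxifen. Adult dams had received 7.5 mg tamoxifen by gavage at embryonic day 10. Each sorted library was a pool of forelimbs of several embryos, and blood and endothelial lineages had been depleted by antibody. No group without tamoxifen was used here. The labels describe the whole limb libraries as a mixture of tdTomato+ and tdTomato- cells and the study's methods give these embryos the same alleles and describe the cells as total lineage-negative. In these libraries 3.26% and 3.64% of mesenchymal cells held a tdTomato UMI, with at most 2 in a cell, against 87.8% to 99.9% in the sorted libraries, and Hic1 was detected in 0.707% and 0.675% of cells against 16.2% to 32.7%. The whole limb values below are therefore almost wholly those of cells in which tdTomato was not detected.

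Hox genes encode homeodomain transcription factors whose order along the chromosome follows the order of their expression along the body axis, with the low-numbered genes expressed most anteriorly. In the limb, the HoxA and HoxD clusters pattern the upper arm, forearm and hand, Hoxa13 and Hoxd13 mark the hand plate, and the cofactors Meis1 and Meis2 mark the proximal limb. HoxC genes are known in the forelimb mainly for early and proximal expression and for their part in motor neurons and skin, and Hoxc10 is known as a gene of the hindlimb and posterior trunk.

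In the annotation of the mm10 (GRCm38) assembly the 6 genes lie on the plus strand of chromosome 15 between 102966796 and 103036852, a span of 70057 bp. In 5′ to 3′ order they are Hoxc10 (ENSMUSG00000022484, 102966796 to 102971893), Hoxc9 (ENSMUSG00000036139, 102976439 to 102985099), Hoxc8 (ENSMUSG00000001657, 102990607 to 102994111), Hoxc6 (ENSMUSG00000001661, 102998257 to 103011881) and Hoxc4 (ENSMUSG00000075394, 103018934 to 103036852). Hoxc5 (ENSMUSG00000022485) is annotated from 102967443 to 103017429 and thus runs across Hoxc10, Hoxc9, Hoxc8 and Hoxc6. Its exons share 166 bases with those of Hoxc10. Within the last 1000 exonic bases of each gene, the end that 3′ libraries read, 0 bases were shared between members.

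The filtered libraries held 3165 to 11109 cells, with a median of 6788 to 8992 UMIs per cell up to E13.5 and 14333 to 18473 from E14.5, where a later reagent kit had been used. Stage and kit therefore cannot be told apart between E13.5 and E14.5. Pairs of libraries shared at most 54 cell barcodes. The 2 whole limb libraries, labelled as replicates, differed by more than sampling noise, and no source used here says whether they came from separate pools of embryos. Sorted groups had 1 library each. Levels are given as CPM, the UMIs of a gene scaled to 1000000 UMIs of the cells in question. These are the mesenchymal cells of a library unless a gate, class, cluster or other set of cells is named. Intervals are exact 95% intervals that cover counting error only.

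Hoxc6 and Hoxc4 were highest in the whole limb at E11.5, lower in sorted MPs at each stage to E13.5, and higher again at E14.5 and in the E16.5 proximal segment, with the E16.5 distal segment lowest. The level of Hoxc6, whose expression along the trunk begins near the level of the forelimb, was 26.7 and 30.4 CPM in the whole limb libraries (28.5 ± 2.61, SD, n = 2). The sorted libraries from E11.5 to E14.5 held Hoxc6 at 6.67, 3.85, 2.996 and 8.0 CPM in order of stage, with 13.1 in the E16.5 proximal segment and 1.92 in the E16.5 distal segment. The E11.5 and E14.5 intervals overlapped, as did those of E12.5 and E13.5, and all other neighbours in the order of levels were separate. For Hoxc4, the most anterior member, the whole limb levels were 12.7 and 13.5 CPM (13.1 ± 0.590, SD, n = 2). Hoxc4 stood at 4.69 CPM in sorted MPs of E11.5, 3.19 of E12.5, 1.41 of E13.5 and 5.32 of E14.5, and at 7.72 in the E16.5 proximal and 0.829 in the E16.5 distal segment. Here the neighbours that overlapped were the whole limb libraries with each other and E11.5 with E14.5.

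Hoxc5 had another order, with its highest level at E14.5. Whole limb cells had 4.39 and 5.13 CPM of Hoxc5, and sorted MPs from E11.5 to E14.5 had 2.04, 2.08, 1.56 and 5.93 CPM in order of stage, with 1.99 CPM in the E16.5 proximal and 0.376 in the E16.5 distal segment. The E14.5 interval overlapped that of whole limb replicate 2 but not that of replicate 1, and E11.5, E12.5, E13.5 and the E16.5 proximal segment formed a second set of overlapping neighbours.

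The more 5′ members were sparse. Hoxc8, which patterns the lower neck and thoracic axial skeleton, had 0.600 and 0.785 CPM in whole limb cells, 0.287, 0.249 and 0.198 CPM in sorted MPs of E11.5, E12.5 and E13.5, 1.16 in those of E14.5, 3.24 in the E16.5 proximal and 0.102 in the E16.5 distal segment. The E16.5 proximal segment was thus the only library whose Hoxc8 interval was separate from that of the next. Hoxc9, another thoracic gene, had 0.985 and 0.551 CPM in whole limb cells and 0.593 CPM in the E16.5 proximal segment, and every other library held at most 15 UMIs of Hoxc9. Hoxc10 was at or near 0 throughout, with 5 and 12 UMIs in the whole limb libraries and at most 6 in any sorted library, and none of its neighbours in order separated.

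**Figure D1:**
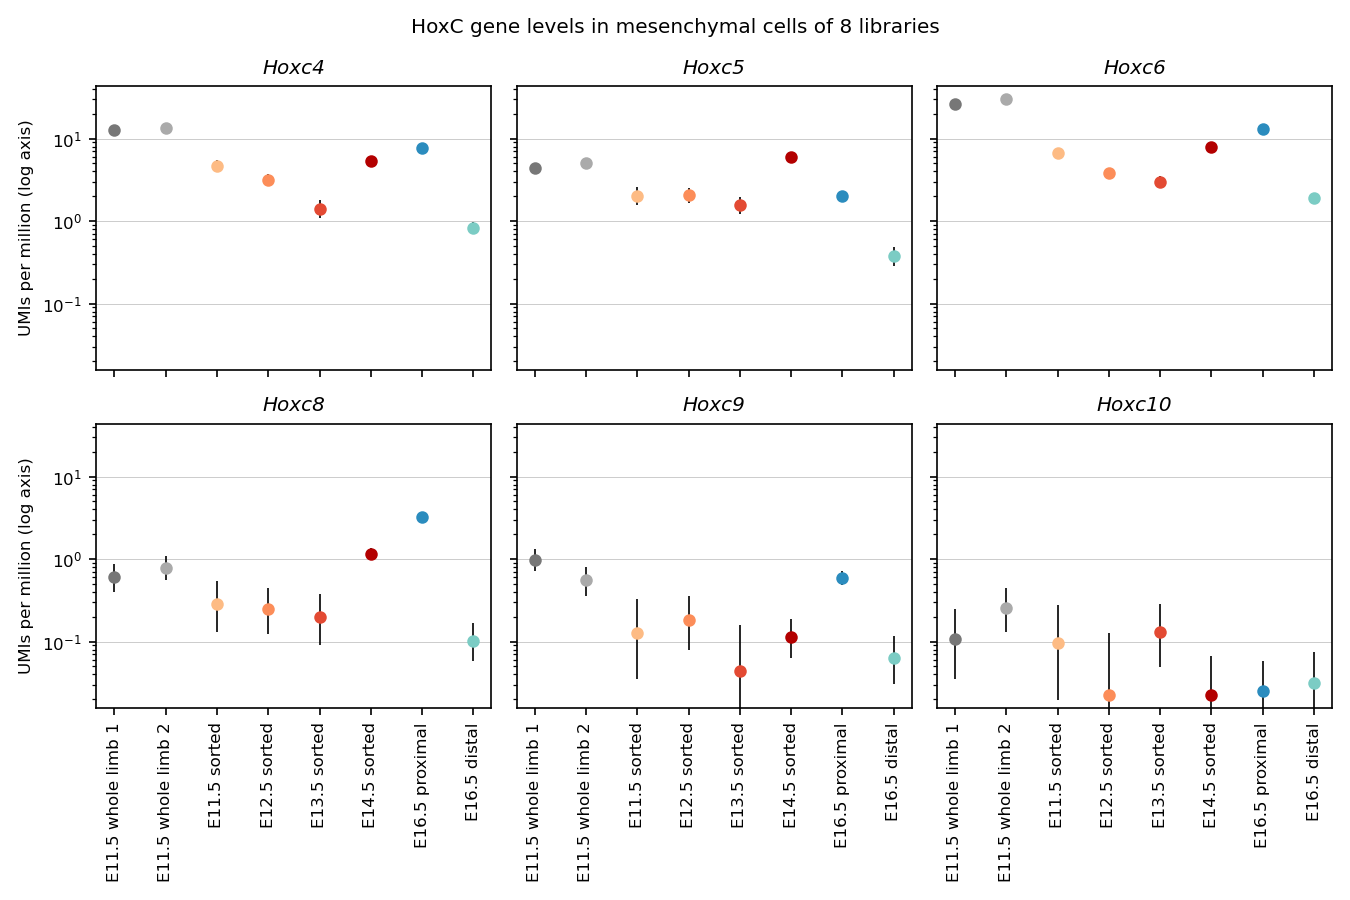
Level of each HoxC gene in the mesenchymal cells of each of the 8 libraries, in CPM on a logarithmic axis, with a panel per gene; points are library values and bars exact 95% counting intervals. Hoxc4 and Hoxc6 are highest in the whole limb at 12.7 to 13.5 and 26.7 to 30.4 CPM and lowest in the E16.5 distal segment, while Hoxc5 peaks among sorted MPs at E14.5, at 5.93 CPM.

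A level per library cannot tell fewer positive cells from fewer transcripts per cell, so the share of cells with a UMI was also taken after each cell had been thinned to 3000 UMIs. A Hoxc6 UMI was then found in 7.49% and 8.03% of whole limb mesenchymal cells and, in sorted MPs, in 1.65%, 0.764%, 0.637% and 2.06% from E11.5 to E14.5, 3.78% in the E16.5 proximal and 0.597% in the E16.5 distal segment. The unthinned shares were 16.2% and 17.6%, then 4.25%, 2.19%, 1.73%, 6.78%, 13.9% and 2.55%. The thinned shares thus ran in the order of the levels, while the unthinned share of the deeper E16.5 distal library lay above those of E12.5 and E13.5. As a measure of free RNA, myogenic-like cells of the whole limb libraries held a thinned Hoxc6 UMI in 1 of 309 cells (0.324%; median 12921 UMIs per cell) and in 0 of 292 (median 11932), which allows up to 1.03%, at greater depth than the mesenchymal cells (medians 8706 and 8441). Without thinning 3.56% and 1.71% of them held a Hoxc6 UMI. The limit of 1.03% lies above the thinned shares of E12.5, E13.5 and the E16.5 distal segment. No such measure was taken in the sorted libraries. Hoxc4, Hoxc5 and Hoxc6 were also unevenly spread between cells: single cells held up to 23 UMIs of Hoxc6 in the sorted E11.5 library and up to 15 of Hoxc4 and 17 of Hoxc6 at E12.5, where the whole library held 141 and 170. The counting intervals of levels take UMIs as independent and leave out this spread, so intervals that are separate may be too narrow.

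The first comparison asked how the tdTomato+ MPs of E11.5 differed from the limb bud as a whole. Hoxc4, Hoxc5, Hoxc6 and Hoxc8 were lower in the sorted library. The fit gave a log2 fold change of -2.28 ± 0.152 (SE) for Hoxc6 (adjusted p = 1.58e-48 in edgeR's quasi-likelihood test with Benjamini-Hochberg adjustment over 15038 genes), which is 4.85-fold lower, and -1.66 ± 0.169 for Hoxc4 (adjusted p = 2.38e-21; edgeR), 3.17-fold lower. Hoxc5 was 2.64-fold lower, with a log2 fold change of -1.40 ± 0.224 (adjusted p = 3.24e-09; edgeR). Hoxc8, with 28 and 37 against 9 UMIs, was 2.71-fold lower (adjusted p = 0.0119; edgeR). In all 26.6% of genes tested were lower in the sorted library. The filter on low counts asked for 1 library of at least 0.214 CPM, which Hoxc9 and Hoxc10 reached only through the whole limb, where they were higher, so they have no test here: Hoxc9 had 46 and 26 UMIs in the whole limb against 4 in sorted MPs, and Hoxc10 had 5 and 12 against 3. The test compared 1 sorted library with 2 whole limb libraries, so the lone library was assumed to vary as those 2 did and the p-values rest on 1 residual degree of freedom. The call of Hoxc8 ended in a DESeq2 Wald test (adjusted p = 0.245) and without the filter on low counts (edgeR adjusted p = 0.0929). With every cell thinned to 3000 UMIs the log2 fold change of Hoxc4 was -2.37. Hoxc8 was then too sparse for a fold change, with a UMI in 1 sorted cell against 11 and 16 whole limb cells.

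The sorted and whole limb cells also differed in where along the limb they stood by their Meis and Hox13 transcripts. Meis-gated cells, with a UMI of Meis1 or Meis2 and none of Hoxa13 or Hoxd13 after thinning, made up 22.6% and 24.5% of whole limb mesenchymal cells and 15.8% of sorted MPs. Hox13-gated cells, defined the other way round, made up 21.2% and 19.0% against 1.43%. Within Meis-gated cells alone, Hoxc6 had 71.2 and 68.6 CPM in whole limb cells against 16.25 in sorted MPs, and Hoxc4 at 37.8 and 38.9 against 17.0. The difference was close in size for Hoxc6 in these cells, with a log2 fold change of -2.17 (adjusted p = 7.35e-09; edgeR), and was also found for Hoxc4 at -1.24 (adjusted p = 3.38e-05; edgeR) and Hoxc5 at -0.93 (adjusted p = 0.00705; edgeR). Hoxc8, at 1.75 and 1.64 against 0.893 CPM, and Hoxc9, with 18 and 16 UMIs against 1, reached the filter of this fit only through the whole limb.

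Genes related to the members gave the following values in the same fit, in which 26.7% of all genes were higher and 26.6% lower in sorted MPs. Genes that reached the filter only through the group in which they were higher are named without a test and not counted. Of 13 HoxA, HoxB and HoxD paralogues of the members, 9 were lower and 2 higher in sorted MPs, with a median log2 fold change of -0.75 against 0.00 over all genes so chosen. Those of the 13 that differed most were Hoxb5 at -2.69, Hoxb4 at -1.94 and Hoxb6 at -1.69, all of the HoxB cluster. Hoxb9 reached the filter only through the whole limb, where it was higher. Of 9 Pbx, Meis and Pknox genes, whose proteins bind DNA together with Hox proteins, 5 were lower and 2 higher, with Meis3 at 0.93, Pknox2 at -0.62 and Meis2 at -0.59. Of 20 genes that regulate Hox clusters, such as Polycomb and trithorax subunits, 10 were lower and 2 higher, and among the lower were Cbx8 at -1.05, Jarid2 at -0.99 and Suz12 at -0.78. The Cdx factors had 12 and 8 UMIs in the whole limb against 0 for Cdx2 and 17 and 18 against 1 for Cdx1, without a test. The retinoic acid genes, whose product activates 3′ Hox genes, split into 5 higher and 4 lower of 10: Aldh1a2, which makes retinoic acid, was higher by 3.02, Aldh1a3 by 2.18 and Rdh10 by 0.75, and Cyp26b1, which breaks it down, was lower at -0.64. Of 4 limb identity genes 2 were higher in sorted MPs, the hindlimb gene Tbx4 by 1.67 and the forelimb gene Tbx5 by 0.94. The Tbx4 levels were 1.43 and 2.02 CPM in whole limb cells and 6.23 CPM in sorted MPs, where Tbx5 stood at 222.7 CPM.

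The second comparison asked where along the limb the HoxC genes were expressed. In all 8 libraries Hoxc4, Hoxc5 and Hoxc6 were higher in Meis-gated than in Hox13-gated cells. For Hoxc5 in the E16.5 proximal segment, with 101 against 1 UMI, the interval of the ratio (0.9992 to 227) included 1. The Hoxc4 levels of Meis-gated cells were 37.8 and 38.9 CPM in the whole limb, 17.0, 13.7, 4.91 and 23.6 CPM in sorted MPs from E11.5 to E14.5, 17.7 in the E16.5 proximal and 3.15 in the E16.5 distal segment. In Hox13-gated cells of the same libraries Hoxc4 was at 1.19, 1.05, 4.87, 0, 0, 0.259, 2.83 and 0.244 CPM. The value of 4.87 came from 3 UMIs in 45 cells and that of 2.83 from 4 UMIs in 63 cells, since sorted MPs at E11.5 and in the E16.5 proximal segment held few Hox13-gated cells. Where the Hox13 gate held no Hoxc4 UMI, its sum was set to a floor of 3 UMIs. Meis-gated cells were then 6.14-fold higher at E12.5 and 4.63-fold at E13.5, with lower interval ends of 4.84 and 3.29. At E14.5, with 619 Meis-gated and 1374 Hox13-gated cells, Hoxc4 was 91.2-fold higher (interval 38.6 to 283).

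Hoxc6 in Meis-gated cells had those 71.2 and 68.6 CPM in the whole limb libraries, then 16.25, 12.5, 9.82, 33.3, 29.7 and 10.1 CPM from E11.5 to the E16.5 distal segment. Hox13-gated cells had 6.60 and 9.24 CPM in the whole limb libraries and at most 0.708 CPM in any sorted library. The few Hox13-gated cells of the sorted E11.5 library, without a Hoxc6 UMI, had an interval that reached 5.98 CPM and overlapped that of whole limb replicate 1 (5.22 to 8.24 CPM). Hoxc5 in Meis-gated cells ran from 1.47 CPM in the E16.5 distal segment to 28.65 CPM at E14.5. Hox13-gated cells held at most 9 Hoxc5 UMIs in any library, too few to order. Their lowest value was 0 UMIs in 45 sorted cells of E11.5, with an interval up to 5.98 CPM. Their highest was 1.49 CPM at E12.5, from 2 UMIs in 126 cells (0.180 to 5.36). Hoxc8 was too sparse to order in 4 of the libraries: Meis-gated against Hox13-gated cells held 5 against 0 UMIs in sorted MPs of E11.5, 4 against 1 at E12.5, 2 against 0 at E13.5 and, in gates of unequal size, 2 against 4 in the E16.5 distal segment.

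**Figure D2:**
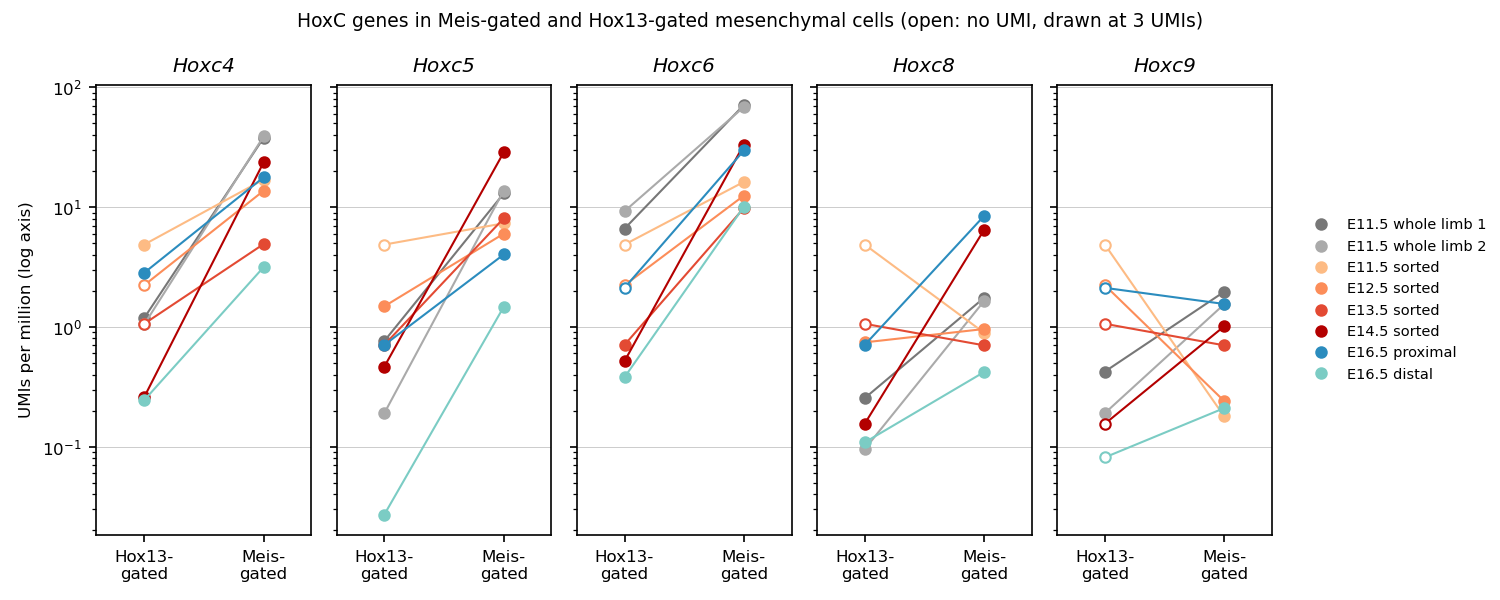
Level of Hoxc4, Hoxc5, Hoxc6, Hoxc8 and Hoxc9 in Hox13-gated and Meis-gated mesenchymal cells, in CPM on a logarithmic axis, with a line joining the 2 gates of each of the 8 libraries. Open circles mark sums without a UMI, drawn at 3 UMIs, and for Hoxc4 the Meis-gated value lies above the Hox13-gated value in every library, by 91.2-fold at E14.5.

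Fitted with each library as a block, Hoxc4 was higher in Meis-gated cells by 4.77 ± 0.406 (log2, SE; adjusted p = 0.000107 in edgeR's quasi-likelihood test with Benjamini-Hochberg adjustment over 14008 genes), 27.2-fold. Hoxc6 was higher by 4.08 ± 0.384 (adjusted p = 0.000191; edgeR), 16.95-fold. The filter on low counts asked for 2 sums of at least 1.36 CPM, which Hoxc4 and Hoxc6 reached in either gate. In the Hox13 gate Hoxc4 reached it only through 3 UMIs in 45 sorted cells of E11.5 and 4 UMIs in 63 cells of the E16.5 proximal segment. Hoxc5, Hoxc8 and Hoxc9 reached it only through the Meis gate, in which they were high, and so have no test here. Their UMIs over all libraries were 769 in Meis-gated against 26 in Hox13-gated cells for Hoxc5, 328 against 13 for Hoxc8 and 89 against 7 for Hoxc9. Hoxc10 did not pass the filter, with at most 3 UMIs in any gate of any library. Of all genes tested, 1.87% were higher and 0.692% lower in Meis-gated cells. Cells of a library share their embryos, so the 16 sums are 8 pairs. Not all pairs differ in stage: the E11.5 libraries share a stage, as do the E16.5 segments, and pairs of a stage may share embryos. Without dermal fibroblast-like cells, which at E14.5 formed 42.5% of the Meis gate and 3.06% of the Hox13 gate, the log2 fold changes of Hoxc4 and Hoxc6 were 4.59 and 3.84. In a fit without the library block the call of Hoxc6 was lost (adjusted p = 0.137; edgeR).

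Of 10 paralogues that either gate let pass, 1 was higher in Meis-gated cells, Hoxb4 at 5.43 ± 0.502, and 1 lower, Hoxd10 at -0.97. Hoxb5, Hoxb6 and Hoxb8 reached the filter only through the Meis gate. Among the cofactors that did not define the gate, Meis3 at 1.76 (adjusted p = 0.00432; edgeR) and Pbx3 at 0.98 (adjusted p = 0.0439; edgeR) were higher of 7 tested. Of 19 cluster regulators, 10 retinoic acid genes and 2 limb identity genes that either gate let pass, 0 were called in either direction. Cyp26a1 reached the filter only through the Hox13 gate, and Aldh1a1, Pitx1 and Isl1 only through the Meis gate.

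Cell classes were compared next, as a description within each library. Clusters were made without the HoxC genes and named from marker lists. At E14.5 the HoxC transcripts were gathered in the dermal fibroblast-like cells, a single cluster of 1152 of 8318 cells (13.85%) in which all 9 markers (among them Rspo1, Lef1, Twist2 and En1, genes of early skin mesenchyme) were detected and summed to 1280 CPM against 125 in the other cells. Hoxc5 was at 33.5 CPM in these cells and 0.822 in the rest, 40.7-fold apart (32.7 to 51.2). Hoxc4 was at 26.2 against 1.44 CPM and Hoxc6 at 38.0 against 2.45 CPM. The class thus held 88.3% of the Hoxc5, 77.2% of the Hoxc4 and 74.2% of the Hoxc6 UMIs of the mesenchymal cells, with 15.6% of their UMIs in all. Hoxc8 was at 6.47 against 0.179 CPM, and the 15 Hoxc9 UMIs of the mesenchymal cells all lay in this cluster. With cells named singly by 3 markers in place of clusters, the log2 ratio of the class to the rest was 4.18 for Hoxc5 and 3.06 for Hoxc6, in place of 5.35 and 3.96.

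After thinning, 10.7% of the E14.5 dermal fibroblast-like cells held a Hoxc6 UMI, against 0.394% of tenocyte-like cells, at median depths of 16520 and 18164 UMIs. The other E14.5 classes were low. Hoxc4 was at 2.59 CPM in fibroblast-like, 2.38 in mitotic-like, 0.445 in chondrocyte-like and 0.414 in tenocyte-like cells, and the order was the same for Hoxc6 in fibroblast-like (4.61 CPM), chondrocyte-like (1.42 CPM) and tenocyte-like cells (0.828 CPM). Fibroblast-like cells stood below the rest in both genes when named by cluster, and above it when named singly by 3 markers (log2 ratio 0.86 for Hoxc4). A cluster of 1368 cells with Hoxa13 and Hoxd13 among its leading genes held Hoxc4, Hoxc5 and Hoxc6 at 0.117 CPM each.

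In the E16.5 proximal segment the dermal fibroblast-like cells (1127 of 10171, 11.1%) again had the highest levels of the named mesenchymal classes, at 35.4 CPM for Hoxc4, 8.31 for Hoxc5, 58.1 for Hoxc6 and 16.45 for Hoxc8. They stood 7.29-fold, 6.22-fold, 6.86-fold and 8.81-fold above the other mesenchymal cells and held 43.0% of the Hoxc4 and 41.5% of the Hoxc6 UMIs. The other cells include a mitotic-like cluster of 303 cells that carries all 9 dermal fibroblast markers and had 46.1 CPM of Hoxc4 and 81.7 of Hoxc6, above the dermal class itself. Without it, a choice made after the data had been seen, the class stood 11.03-fold, 10.2-fold, 10.5-fold and 15.8-fold above the rest. In fibroblast-like, tenocyte-like and chondrocyte-like cells the Hoxc4, Hoxc6 and Hoxc8 values lay above those of E14.5, but not all were separate by their counts. In fibroblast-like cells the interval of the ratio to E14.5 included 1 for Hoxc4 (2.59 and 3.32 CPM, 0.973 to 1.70) and Hoxc8 (14 and 30 UMIs, 0.874 to 3.47). It also did for Hoxc8 in tenocyte-like cells, with 0 and 5 UMIs. Hoxc5 went from 1.42 to 0.765 CPM in fibroblast-like cells. Mitotic-like cells had 11.3 CPM of Hoxc4 against 2.38 at E14.5, and 3.82 without that cluster, which held 319 of their 441 Hoxc4 UMIs. Pericyte-like cells, a class that wraps small vessels, had 7.02 CPM of Hoxc4, 14.95 of Hoxc6 and 4.98 of Hoxc8, while tenocyte-like cells had 1.59 CPM of Hoxc4 and 4.26 of Hoxc6 and chondrocyte-like cells 2.06 and 3.17. An unnamed cluster of 105 cells led by Car3, Agt, Fabp4 and Pparg, genes of fat cells and their precursors, had the highest Hoxc9 level of that library, 8.57 CPM from 20 UMIs, with Hoxc8 at 16.3 CPM. In the E16.5 distal segment the dermal fibroblast-like cells (1496 of 8381, 17.85%) had 2.71 CPM of Hoxc4 and 6.80 of Hoxc6, and 1386 perichondrial-like cells held 0 UMIs of Hoxc4 and 2 of Hoxc6.

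**Figure D3:**
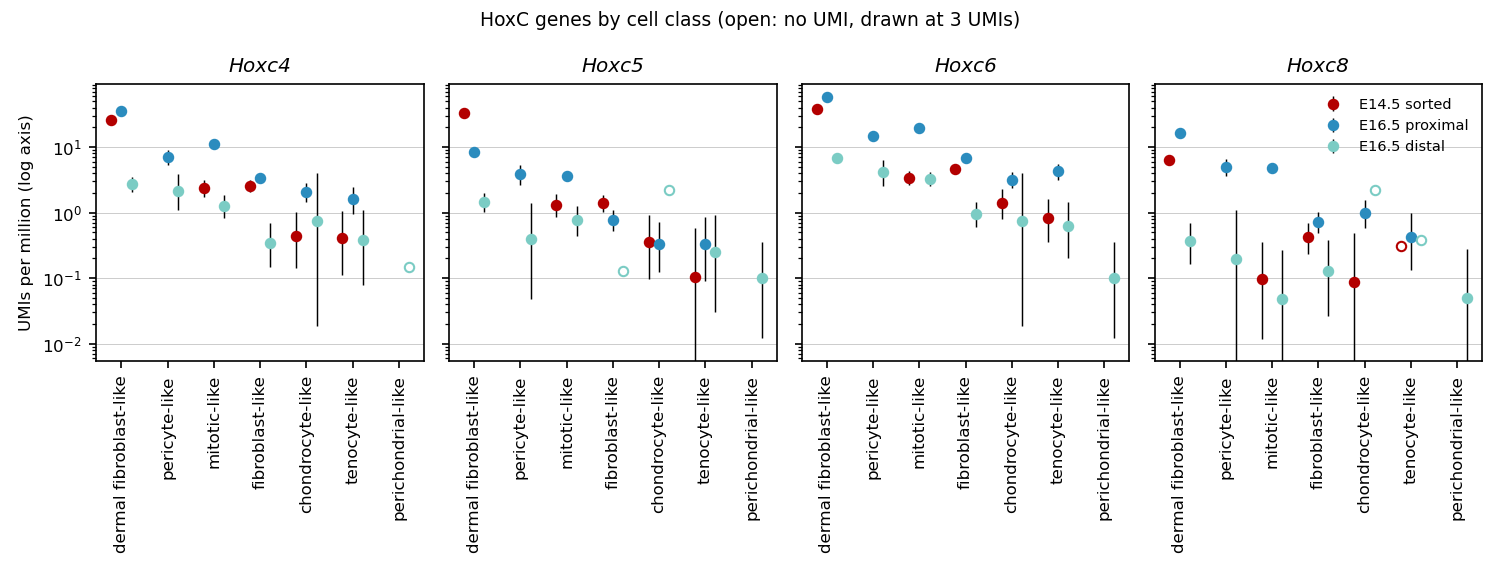
Level of Hoxc4, Hoxc5, Hoxc6 and Hoxc8 by cell class at E14.5 and in the E16.5 proximal and distal segments, in CPM on a logarithmic axis with exact 95% counting intervals; open symbols mark classes without a UMI, drawn at 3 UMIs. Dermal fibroblast-like cells lie highest for Hoxc4 in each of the 3 libraries, at 26.2, 35.4 and 2.71 CPM. In the E16.5 distal segment pericyte-like cells lie close below, at 2.17 CPM from 11 UMIs.

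Before E14.5 most clusters matched no marker list and are described by their leading genes. In the whole limb the HoxC transcripts were concentrated in a pair of clusters with Pax1 and Irx3, genes of the proximal and anterior limb bud, among their leading genes. Hoxc4 and Hoxc5 were themselves among the leading genes of the first. This cluster (449 and 592 cells in the replicates) held Hoxc4 at 69.0 and 69.0 CPM, Hoxc5 at 26.2 and 24.4 CPM and Hoxc6 at 98.0 and 106.8 CPM. In the other (451 and 441 cells) Hoxc4 was at 40.2 and 34.1 CPM and Hoxc6 at 89.98 and 87.3 CPM. The replicates gave like values in both, while in 3 clusters with Hoxa13 and Hoxd13 among their leading genes Hoxc4 ran from 0.940 to 2.02 CPM and Hoxc6 from 7.73 to 14.3 CPM. Chondrocyte-like cells were between these, with Hoxc4 at 2.64 and 2.67 CPM and Hoxc6 at 21.8 and 25.8 CPM.

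In sorted MPs the clusters were closer together. The main clusters of E11.5, of 1876 cells without a name and 1240 cells called tenocyte-like on 3 markers, had Hoxc4 at 3.45 and 5.45 CPM. Among E12.5 clusters of at least 50 cells Hoxc4 was highest, at 5.97 CPM, in 748 cells led by Tbx3, Gata2 and Fgf8, followed by 5.21 CPM in 1092 mitotic-like cells, while 1715 early mesenchymal progenitor-like cells had 0.482 CPM. At E13.5 Hoxc5 was at 7.65 CPM (5.60 to 10.2) in 714 cells led by Alx1, Kera and Emx2, against 1.56 CPM in the whole library, and no other cluster of at least 50 cells in that library exceeded 1.71 CPM.

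The third comparison set the E16.5 distal segment against the proximal, with 1 library each and so without a test. Hoxc4, Hoxc5, Hoxc6, Hoxc8 and Hoxc9 were all lower distally, by 5.29-fold to 31.7-fold. The distal to proximal ratio was 0.107 for Hoxc4 (interval 0.0890 to 0.128; 130 against 1537 UMIs), 0.189 for Hoxc5 (0.141 to 0.249) and 0.146 for Hoxc6 (0.129 to 0.165; 301 against 2612 UMIs). Hoxc8 differed most, with 16 against 644 UMIs and a ratio of 0.0315 (0.0179 to 0.0516), and Hoxc9 had 10 against 118 UMIs. For Hoxc10, with 5 UMIs in each, no difference was detectable at this depth, while over all filtered cells, epithelial ones included, it had 18 UMIs distally against 8 proximally, a log2 ratio of 1.73. Hoxc4 and Hoxc6 reached the 5 CPM at which a 2-fold difference was called, and both were called lower, among 2.57% of 10151 such genes. The tables of the segments came from different Cell Ranger versions, 3.0.2 for proximal and 6.0.1 for distal, so segment and version cannot be told apart. Over all filtered cells the log2 ratio of Hoxc8 was -3.16 in place of -4.99 and that of Hoxc9 -1.84 in place of -3.22.

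Hoxc4 and Hoxc6 were lower distally in each of the 5 named classes compared. Chondrocyte-like cells, 50 distal and 978 proximal, are not among these. Their ratios were 0.358 for Hoxc4 (0.00883 to 2.12, 1 against 37 UMIs) and 0.232 for Hoxc6 (0.00578 to 1.35), not separate from 1. The share of dermal fibroblast-like cells was larger in the distal segment, 17.85% against 11.1%, and their 9 markers summed to 1530 and 1311 CPM. The markers did not all move alike. From proximal to distal Twist2 went from 457.8 to 728.8 CPM, Irx1 from 312.2 to 156.2 and Rspo1 from 85.9 to 46.3. Col7a1 was also lower distally, at 219.8 against 223.2 CPM, and the remaining markers were higher. In dermal fibroblast-like cells Hoxc4 went from 35.4 CPM proximally to 2.71 distally, 13.1-fold lower, and Hoxc8 from 16.45 to 0.364 CPM, 45.2-fold lower. In mitotic-like cells, which carry cell division genes, Hoxc4 went from 11.3 to 1.26 CPM and Hoxc6 from 19.2 to 3.29 CPM. Among these 5 classes the gap was smallest for Hoxc4 in pericyte-like cells, from 7.02 to 2.17 CPM, 3.24-fold, and for Hoxc6 in the same cells, 3.61-fold. Different clusters held most of the fibroblast-like cells of the segments, cluster 2 with 1535 proximal and 94 distal cells and cluster 11 with 21 and 616. Within cluster 9, a fibroblast-like cluster with 566 and 384 cells, Hoxc4 was at 5.93 against 0.978 CPM and Hoxc6 at 11.3 against 2.515. The same was true of the dermal fibroblast-like cells: cluster 7 had 1036 proximal and 100 distal cells, and cluster 4, whose leading 10 genes hold none of the markers, 1331 of the distal ones. Within cluster 7 alone Hoxc4 was at 38.1 against 3.86 CPM, Hoxc6 at 63.0 against 11.6 and Hoxc8 at 17.3 against 0.643. A mitotic-like cluster shared about evenly, with 303 proximal and 290 distal cells, also carried all 9 dermal fibroblast markers and is thus not separate from the dermal class by its markers. In it Hoxc4 was 14.8-fold and Hoxc6 10.8-fold lower distally, and Hoxc8 had 156 against 0 UMIs.

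One cluster departed from this for Hoxc4. In 2835 proximal and 221 distal cells whose leading genes were muscle fibre genes such as Acta1, Tnnc2 and Mylpf together with others such as Entpd2, Syt13 and Alx1, Hoxc4 was at 2.34 and 2.16 CPM, a ratio of 0.921 (0.448 to 1.71), although Hoxc6 was at 3.51 and 1.57 CPM (ratio 0.448, 0.190 to 0.901). Hoxc5 in tenocyte-like cells, with a ratio of 0.753 (0.0682 to 5.26), was too sparse to order. A mitotic-like cluster of 274 proximal and 203 distal cells gave 0.321 (0.0581 to 1.19) for Hoxc4 and 0.428 (0.139 to 1.125) for Hoxc6. Both intervals include 1. Of the 14 paralogues 6 reached 5 CPM, and 1 was at least 2-fold lower distally and 0 higher.

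**Figure D4:**
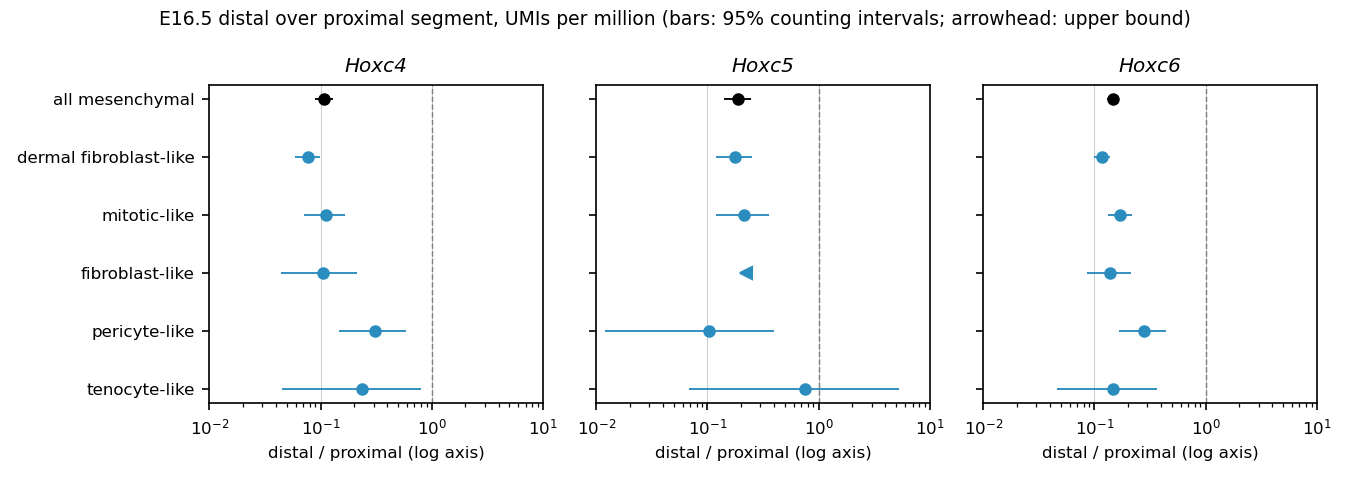
Ratio of the E16.5 distal to the proximal segment for Hoxc4, Hoxc5 and Hoxc6 on a logarithmic axis, in all mesenchymal cells and in 5 cell classes; bars are 95% counting intervals, the arrowhead an upper bound for a class without distal UMIs, and the dashed line a ratio of 1. In all mesenchymal cells the ratios are 0.107, 0.189 and 0.146, and for Hoxc4 and Hoxc6 every class lies below 1.

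The fourth comparison followed sorted MPs in time. Between the libraries of the earlier kit, Hoxc4 at E12.5 stood at 0.680 of its E11.5 level (0.535 to 0.862) and at E13.5 at 0.442 of its E12.5 level (0.324 to 0.598), and Hoxc6 at 0.576 (0.468 to 0.709) and 0.779 (0.617 to 0.982). Hoxc5 stayed within its counting error, at 1.02 and 0.752 (0.544 to 1.04). The steps from E13.5 to E14.5 were 3.77 for Hoxc4, 3.79 for Hoxc5, 2.67 for Hoxc6 and 5.86 for Hoxc8, all upward, and coincided with the change of kit. Hoxc9 had 15 against 2 UMIs, a ratio of 2.57 (0.597 to 23.1), and Hoxc10 had 3 against 6, a ratio of 0.171 (0.0277 to 0.801). The whole course, from E11.5 to the E16.5 proximal segment, spans both kits and sets a whole forelimb against a segment. The E16.5 distal segment held Hoxc4 and Hoxc6 at 0.829 and 1.92 CPM, against 4.69 and 6.67 at E11.5. Hoxc8 was there at 0.102 against 0.287 CPM, with overlapping intervals. From E11.5 to the E16.5 proximal segment the ratio was 1.65 for Hoxc4 (1.39 to 1.962), 0.974 for Hoxc5 (0.746 to 1.29), 1.97 for Hoxc6 (1.71 to 2.28), 11.3 for Hoxc8 (5.90 to 24.7) and 4.64 for Hoxc9 (1.77 to 17.3). With Hoxc4 and Hoxc6 as the members that reached 5 CPM, 0 of these 2 were called at least 2-fold higher, while 13.7% of 10727 genes were. The median log2 ratio of all genes was -0.48, so with TMM scaling both passed 2-fold, and without dermal fibroblast-like cells, a class that was not named at E11.5 and so was removed from E16.5 alone, their log2 ratios were 0.05 and 0.34.

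The fifth comparison, E14.5 against the E16.5 proximal segment, lay within the later kit but set a whole forelimb against a segment. Hoxc5 was lower at E16.5, at 0.336 of its E14.5 level (0.297 to 0.379; 2.98-fold), while Hoxc4 was at 1.45 (1.33 to 1.59), Hoxc6 at 1.64 (1.53 to 1.76), Hoxc8 at 2.79 (2.33 to 3.34) and Hoxc9 at 5.24 times that level (3.05 to 9.66). Of the 3 members that reached 5 CPM, Hoxc4, Hoxc5 and Hoxc6, 1 was called lower and 0 higher, and of 10296 such genes 6.81% were called lower and 5.84% higher. The median log2 ratio of all genes was -0.18.

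The Hoxc5 ratio differed by class, with the cells of E14.5 and E16.5 clustered separately. In dermal fibroblast-like cells Hoxc5 went from 33.5 to 8.31 CPM, a ratio of 0.248 (0.207 to 0.296), and in all other mesenchymal cells from 0.822 to 1.34 CPM, a ratio of 1.63 (1.27 to 2.09). Of the 241 Hoxc5 UMIs of these other cells at E16.5, 100 came from the mitotic-like cluster with the dermal fibroblast markers, and without it the ratio was 0.989 (0.755 to 1.30). With that cluster counted among the dermal fibroblast-like cells of E16.5, the Hoxc5 ratio of the class was 0.298 (0.257 to 0.344). At E14.5, by contrast, a finer clustering placed 244 cells with all 10 mitotic markers inside the dermal class. Both changes were chosen after the data had been seen. Fibroblast-like cells alone had a Hoxc5 ratio of 0.540 (0.334 to 0.865), while mitotic-like cells went from 1.31 to 3.60 CPM, or to 1.25 without that cluster. The difference between the ratios of dermal fibroblast-like and other cells was not tested, since each stage had 1 library. The ratios of the other members were smaller in dermal fibroblast-like cells than elsewhere: Hoxc4 was at 1.35 against 3.38, Hoxc6 at 1.53 against 3.46 and Hoxc8 at 2.55 against 10.45. Without that mitotic-like cluster the ratios elsewhere were 2.23, 2.27 and 5.84. Hoxc9 had a ratio of 3.33 in dermal fibroblast-like cells and no UMI at E14.5 in the rest. With that empty sum set to a floor of 3 UMIs, Hoxc9 was 15.1-fold higher there at E16.5 (lower end of the counting interval 11.97). Without the mitotic-like cluster the same value was 10.75-fold (lower end 8.425).

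**Figure D5:**
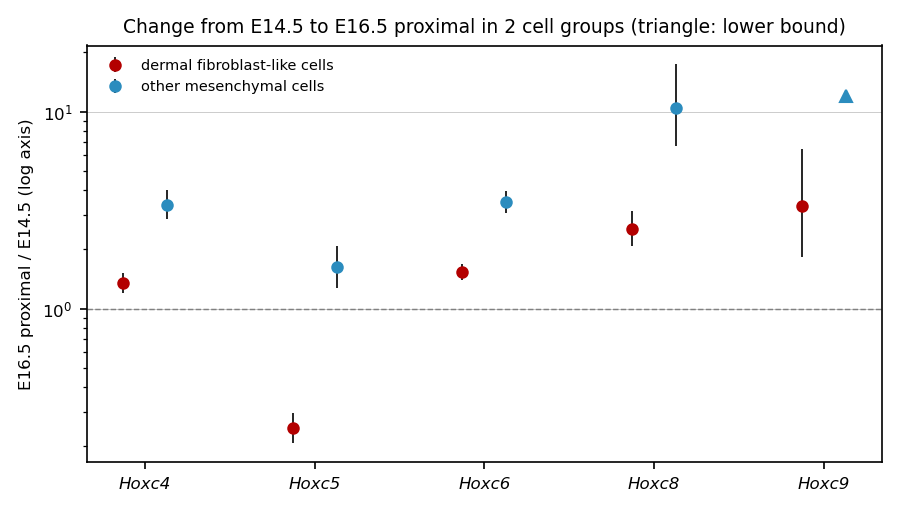
Ratio of the E16.5 proximal segment to E14.5 for Hoxc4, Hoxc5, Hoxc6, Hoxc8 and Hoxc9 on a logarithmic axis, in dermal fibroblast-like cells and in the other mesenchymal cells, with 95% counting intervals and a triangle for the lower end of the interval where E14.5 had no UMI. Hoxc5 in dermal fibroblast-like cells is the only point below 1, at 0.248.

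HoxC genes were found in the same cells more often than their separate shares would give, within libraries of mixed classes. At E14.5, after thinning, 32 cells held both Hoxc4 and Hoxc5 where independence would give 1.36, and Hoxc5 was found in 29.4% of Hoxc4-positive cells against 0.877% of the others. Hoxc4 and Hoxc6 shared 30 cells at E14.5 (2.24 if independent), 46 in the E16.5 proximal segment (8.31) and 44 and 54 in the whole limb libraries (12.5 and 14.5). Cells that held a UMI of any member after thinning made up 11.1% and 11.7% of whole limb mesenchymal cells. The thinned shares were 2.66%, 1.38%, 1.16% and 3.93% of sorted MPs from E11.5 to E14.5, 6.73% in the E16.5 proximal and 1.00% in the E16.5 distal segment.

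Across 37 sums of UMIs by library and class, which share libraries, depth and kit, Hoxc4 correlated with Hoxc5 at Pearson's r = 0.90 and with Hoxc6 at 0.89 on the scale of log2(CPM + 1), and Hoxc6 with Hoxc8 at 0.60. Outside the locus the genes most like Hoxc4 were Hoxb4 (0.80), Meis2 (0.78) and Cd40 (0.76), those most like Hoxc5 were Rspo1 (0.77), Cd40 (0.77) and Ctnna2 (0.76), and those most like Hoxc6 were Meis2 (0.78), Cd40 (0.77) and Gm16141 (0.76). For Hoxc9 they were Hoxb8 (0.81), Hoxb3 (0.77) and Hoxb4 (0.77), and for Hoxc8 they were Rbm3 (0.76), Traf3ip2 (0.76) and Hoxb5os (0.73). Hoxb4, the HoxB gene of the same paralogue group as Hoxc4, followed a similar course by library, with 9.27 and 10.6 CPM in whole limb cells, 2.94, 0.882, 0.22 and 2.71 CPM from E11.5 to E14.5, 7.30 in the E16.5 proximal and 0.453 in the E16.5 distal segment.

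The remaining genes of the locus were scarce. Hoxc11 had at most 31 UMIs in a library, with 31 in each whole limb library against 3 in sorted MPs of E11.5. Hoxc13 had at most 29 UMIs, Hotair, a long noncoding RNA, at most 4, and Hoxc12 at most 1.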

How the data were processed

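The authors deposited filtered 10x Genomics 3′ tables of raw UMI counts per gene and cell. Per the file headers these came from Cell Ranger 3.0.2 (sorted E11.5 to E14.5 and E16.5 proximal) and 6.0.1 (E16.5 distal), and the whole limb headers name no version, while the study's reporting summary names another one for single-cell data as a whole. The submitters' notes name mm10. The authors used the v2 kit to E13.5 and the v3 kit from E14.5.

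Cells with at least 3000 UMIs and at most 10% mitochondrial UMIs were kept. Cells were clustered in scanpy 1.11.5 (2000 variable genes without the HoxC genes, 50 components, 25 neighbours, Leiden resolution 1), and a cluster was named "X-like" from at least 3 fixed markers. UMI counts were summed per library, gate (at least 20 cells) and class. Tests were run for the gates and for sorted against whole limb cells, where the sorted group had a single sum. They used edgeR 4.0.16 (filterByExpr, TMM, quasi-likelihood test, Benjamini-Hochberg threshold 0.05). Elsewhere exact 95% counting intervals are given, a 2-fold ratio was called where the higher library reached 5 CPM, and sums without UMIs were set to a floor of 3 counts. Libraries totalled 32957305 to 236408650 UMIs, which limits the precision of sparse genes. The doublet caller Scrublet marked at most 5 cells a library and was judged not to have worked, so removing the 5% of cells with the highest scores was tried instead, an alternative chosen after seeing the data. The edgeR steps were tested on simulated counts and recovered 195 of 200 genes with 4-fold changes among 14756 for the sorted against whole limb design and 200 of 200 among 13811 for the gates. Alternatives were DESeq2 1.42.0, no filter, other gates, clusterings and depth minima, and leaving out libraries.

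The genes and lists were chosen with earlier results of these data known. All members are described, and up to 6 genes of each list are named in order of largest log2 fold change among those past the test, except for genes that are not reported here. Like genes are the 3 with the highest correlation over sums of at least 100 cells.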

Additional observations from a re-analysis of the deposited data

Results flagged for a closer look

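The Hoxc5 ratio of the E16.5 proximal segment to E14.5 was 0.248 in dermal fibroblast-like cells and 1.63 in other mesenchymal cells, the latter 0.989 without the mitotic-like cluster that carries the dermal fibroblast markers; the difference was not tested. Cells set aside as non-mesenchymal enter above only the values over all filtered cells and the myogenic-like measure of free RNA. Some of their clusters of at least 20 cells held members above the mesenchymal cells of their libraries, with separate counting intervals. In 63 epithelial-like cells at E14.5, Hoxc8 was at 53.7 CPM (42.2 to 67.4, from 74 UMIs), Hoxc5 at 23.2, Hoxc4 at 21.8 and Hoxc6 at 14.5 CPM. A cluster of 336 cells led by Krt14 and Krt5 in the E16.5 proximal segment had Hoxc8 at 22.55 CPM (193 UMIs), Hoxc4 at 15.5 and Hoxc9 at 1.52 CPM. The 39 cells of that cluster in the E16.5 distal segment had Hoxc8 at 40.04 CPM (36 UMIs), Hoxc6 at 27.8, Hoxc4 at 14.5, Hoxc9 at 13.35 and Hoxc10 at 14.5 CPM (13 UMIs), and 27 epithelial-like cells there had Hoxc8 at 10.8 CPM (16 UMIs). A whole limb cluster of 66 and 59 cells in the replicates, led by the platelet genes Pf4, Ppbp and Gp9 with the endothelial genes Emcn and Cdh5 although the cells had been depleted of blood and endothelial lineages, had Hoxc8 at 7.49 and 20 CPM and Hoxc10 at 5.99 and 6.67 CPM, and in replicate 2 Hoxc9 at 15 CPM, from 4 to 12 UMIs each.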

How the results depend on the processing

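Of all genes, 8023 passed the test between sorted and whole limb cells; the number was 4881 with DESeq2, 4401 without a filter on low counts and 3635 in Meis-gated cells. Between the gates 359 genes passed; the number was 635 with DESeq2, 631 without a filter and 216 with gates of at least 2 UMIs. Samples paired by library: without the library block 13 genes passed. Leaving out 1 library left 175 to 374, with 175 without sorted E14.5 and 220 and 210 without whole limb replicates 1 and 2. The cause was not tested. Removing dermal fibroblast-like cells, chosen after seeing the data, reduced the members at least 2-fold lower distally from 2 to 1, since Hoxc4 then lay under 5 CPM at 4.86 CPM while its log2 ratio was -3.35 against -3.22, and those lower in the E16.5 proximal segment than at E14.5 from 1 to 0, and turned the log2 ratio of Hoxc5 there from -1.58 to 0.70, and to -0.017 without E16.5 cluster 14 as well. Members at least 2-fold higher in the E16.5 proximal segment than at E11.5 went from 0 to 2 with thinned counts and to 2 with TMM scaling. Naming single cells with 3 markers in place of clusters turned the log2 ratios of fibroblast-like cells over the rest at E14.5 to 0.86 for Hoxc4, 0.98 for Hoxc5 and 1.47 for Hoxc6. Leaving out whole limb replicate 1 or 2 gave sorted against whole limb log2 fold changes of -1.72 and -1.61 for Hoxc4, -1.52 and -1.27 for Hoxc5, -2.38 and -2.17 for Hoxc6, -1.60 and -1.20 for Hoxc8 and -2.19 and -2.99 for Hoxc9, as values without a test. Not counting the values without or with E16.5 cluster 14, of the values by class 93 moved by less than their counting interval, 47 by more and 3 reversed; of the ratios between libraries the numbers were 98, 27 and 1. Depth limits Hoxc8, Hoxc9 and Hoxc10 most.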
